A study of Homo sapiens with 8 samples.

Results

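The 6 genes NEFH, CITED1, WNT10B, TMEM52, KCNH4 and ZNF296 were followed through RNA sequencing of K562 cells given Lip-1, out of 19447 genes in the deposited count table. They were picked by name, as non-globin genes with large falls in the treated libraries, so their falls against control are described here without a test. K562 is an established human erythroleukaemia line, labelled wild type. The labels give the compound as Lip-1 alone, which usually stands for the ferroptosis inhibitor liproxstatin-1. The groups were 3 libraries of cells given 10 µM Lip-1 for 24 h (replicates 2 to 4, Day 1), 1 library given 20 µM for 24 h (replicate 1, Day 1) and 4 libraries of cells without Lip-1 (controls 1 to 4, Day 0). Treatment and day label coincide, so their parts cannot be told apart, and the labels do not say whether controls received a vehicle or whether libraries came from separate cultures. The p-values then measure the spread between these libraries, which may be technical.

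Total counts per library ran from 71151415 to 141307169. All 9 erythroid markers of K562 checked, among them GATA1 and the gamma globins, stood above 10 CPM (counts per 1000000 counts of the library) in every library. Their median log2 fold change, treated against control, was -0.65. HBG1 (-0.92, edgeR adjusted p = 0.0236) and HBG2 (-0.84, edgeR adjusted p = 0.0312) passed as lower and 0 of the 9 passed as higher. Of all 13101 genes tested, 6.69% passed as lower and 7.47% as higher. TAL1 (0.38, edgeR adjusted p = 0.533) and TFRC (0.30, edgeR adjusted p = 0.470) lay above 0 without passing. GATA1 averaged 207 CPM at 10 µM and stood at 63.5 CPM at 20 µM, against a mean of 212 CPM in controls. KLF1 averaged 113 CPM at 10 µM and stood at 29.3 CPM at 20 µM, against 169 CPM in controls. The part of these differences in the falls of the 6 genes was not tested. In bulk RNA, fewer cells with a transcript and less of it per cell cannot be told apart.

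The genes have unrelated roles. NEFH encodes the heavy subunit of neurofilaments, the intermediate filaments of axons, which assembles with light and medium subunits and carries a tail that kinases phosphorylate. CITED1 encodes a transcriptional co-regulator that binds no DNA itself and works through the acetyltransferases CBP and p300. WNT10B encodes a secreted ligand that acts through frizzled and LRP receptors to stabilise beta-catenin. KCNH4 encodes a voltage-gated potassium channel of the EAG superfamily, TMEM52 a predicted membrane protein, and ZNF296 a C2H2 zinc finger protein whose mouse counterpart has been linked to reprogramming and to H3K9 methylation. All lie on different chromosomes. On GRCh38 with GENCODE 29 they are protein-coding genes, NEFH on chromosome 22 from 29480230 to 29491390, CITED1 on X from 72301638 to 72307187, WNT10B on 12 from 48965340 to 48971763, TMEM52 on 1 from 1917590 to 1919273, KCNH4 on 17 from 42156891 to 42181278 and ZNF296 on 19 from 45071500 to 45076588.

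Promoter sequence was at hand for 4 of the 6 genes, CITED1, TMEM52, KCNH4 and ZNF296. The 250 bases before the RefSeq start (GRCh38.p14) are shown 5′ to 3′ because genes that fell together invite a look at what their starts share. Capitals mark letters searched on both strands: the GC box GGGCGG, the CCAAT box CCAAT, the TATA box TATAAA, the MYC E-box CACGTG, the GATA motif AGATAA, the AP-1 motif TGACTCA and the cAMP response element TGACGTCA. None of these contains another.
CITED1, chrX:72307158-72307407, minus strand: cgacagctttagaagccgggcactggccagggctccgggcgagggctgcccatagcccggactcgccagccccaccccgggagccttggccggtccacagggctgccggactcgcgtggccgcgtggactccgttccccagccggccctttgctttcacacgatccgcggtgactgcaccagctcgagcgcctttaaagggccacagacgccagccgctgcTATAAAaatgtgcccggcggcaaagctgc
TMEM52, chr1:1919280-1919529, minus strand: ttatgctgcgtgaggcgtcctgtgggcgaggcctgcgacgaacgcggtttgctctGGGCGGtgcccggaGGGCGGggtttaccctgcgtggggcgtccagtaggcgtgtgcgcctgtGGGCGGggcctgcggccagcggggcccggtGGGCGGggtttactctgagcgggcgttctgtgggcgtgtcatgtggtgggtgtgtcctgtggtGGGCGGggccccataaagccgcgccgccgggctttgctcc
KCNH4, chr17:42181143-42181392, minus strand: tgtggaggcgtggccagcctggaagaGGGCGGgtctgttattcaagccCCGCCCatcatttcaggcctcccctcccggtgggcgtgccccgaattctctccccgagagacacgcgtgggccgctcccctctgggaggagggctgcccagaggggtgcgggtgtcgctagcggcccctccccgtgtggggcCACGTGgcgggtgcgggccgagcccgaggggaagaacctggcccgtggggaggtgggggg
ZNF296, chr19:45076479-45076728, minus strand: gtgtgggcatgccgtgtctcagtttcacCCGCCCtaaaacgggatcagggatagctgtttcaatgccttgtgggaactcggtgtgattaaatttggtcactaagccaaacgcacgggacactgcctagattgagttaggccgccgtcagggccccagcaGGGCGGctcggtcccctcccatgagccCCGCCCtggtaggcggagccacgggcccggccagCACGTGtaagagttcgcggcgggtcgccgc
No motif was held by all 4. The CITED1 window holds TATAAA near its end, and the windows of all 3 RefSeq starts of this gene hold these letters, while 10.7% of 35116 windows of this length hold it. The GC box occurs 5 times in the TMEM52 window, 2 times in that of KCNH4 and 3 times in that of ZNF296, and is in 42.6% of all windows. The letters CACGTG are in the KCNH4 and ZNF296 windows and in 6.34% of all. The share of G and C is 71.6% in the window of TMEM52, 72.4% in that of KCNH4 and 62.8% in that of ZNF296, and 68.4%, 57.6% and 62.8% in those of the 3 CITED1 starts, where all windows have a median of 58% and an upper quartile of 68%. These are letter matches, and no factor's binding was measured.

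In the control libraries NEFH was the most abundant of the 6 per length of transcript, at 28.9 CPM per kilobase of exonic sequence, which put it at percentile 86.7 of 12859 tested genes. The other 5 lay at percentiles 28.8 to 45.9 on that scale, from 1.43 CPM per kilobase for KCNH4 to 4.25 for ZNF296. The spread of log2 CPM over the 4 controls (SD) was 0.16 to 0.19 for ZNF296, WNT10B and TMEM52 and 0.33 to 0.39 for NEFH, CITED1 and KCNH4, where the median of all tested genes was 0.20.

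NEFH stood at 26.5, 27.3 and 18.4 CPM in 10 µM replicates 2 to 4 and at 9.29 CPM in the 20 µM library, against 93.8, 125, 128 and 90.3 CPM in controls 1 to 4. Every treated library lay below every control, with the 20 µM library lowest. The means were 24.1 ± 4.94 CPM at 10 µM (SD, n = 3) and 109 ± 20.1 CPM in controls (SD, n = 4), so that 22.01% of the control level was left at 10 µM and 8.49% at 20 µM. The log2 fold change of all treated libraries against control was -2.55 (SE 0.34).

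CITED1 had 1.49, 1.38 and 1.67 CPM at 10 µM and 0.306 CPM at 20 µM, against 7.60, 4.89, 3.79 and 5.69 CPM in the controls. The 10 µM libraries were close to each other, and the 20 µM library, with 38 counts, was far below them. Its 95% exact binomial interval was 0.216 to 0.420 CPM, for counting error alone and if counts are single reads. The log2 fold change of CITED1 against control was -2.30 (SE 0.49), and the level left was 27.5% at 10 µM and 5.57% at 20 µM.

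WNT10B had 2.34, 2.99 and 1.35 CPM at 10 µM and 1.09 CPM at 20 µM, against 6.10, 6.32, 7.35 and 6.58 CPM in the controls. KCNH4 had 2.61, 2.67 and 1.24 CPM at 10 µM and 1.04 CPM at 20 µM, against 5.15, 6.04, 7.06 and 4.13 CPM in the controls. In both, 10 µM replicate 4 lay nearer to the 20 µM library than to the other 10 µM libraries, and no treated library reached the lowest control. The log2 fold changes were -1.88 for WNT10B (SE 0.36) and -1.69 for KCNH4 (SE 0.39). With levels of 33.8% and 38.9% of control at 10 µM and 16.6% and 18.6% at 20 µM, these genes had nearly the same course, and their profiles over the 8 libraries differed by a root mean square of 0.25 on the log2 scale, the smallest value among the 15 pairs of the 6 genes.

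TMEM52 had 1.70, 2.04 and 1.61 CPM at 10 µM and 0.620 CPM at 20 µM, against 4.71, 4.42, 4.87 and 3.87 CPM in the controls. The groups were tight and did not overlap, with a log2 fold change of -1.71 (SE 0.37).

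ZNF296 took another course. It had 3.21, 2.502 and 2.57 CPM at 10 µM and 7.25 CPM at 20 µM, against 8.76, 7.14, 7.13 and 6.63 CPM in the controls. All 3 libraries at 10 µM were below every control, but the 20 µM library, with 901 counts and an exact binomial interval of 6.79 to 7.74 CPM, lay within the range of the controls at 97.8% of their mean. Averaged over all treated libraries its log2 fold change was -1.04 (SE 0.37), and at 10 µM alone it was -1.55 (SE 0.21).

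**Figure D1:**
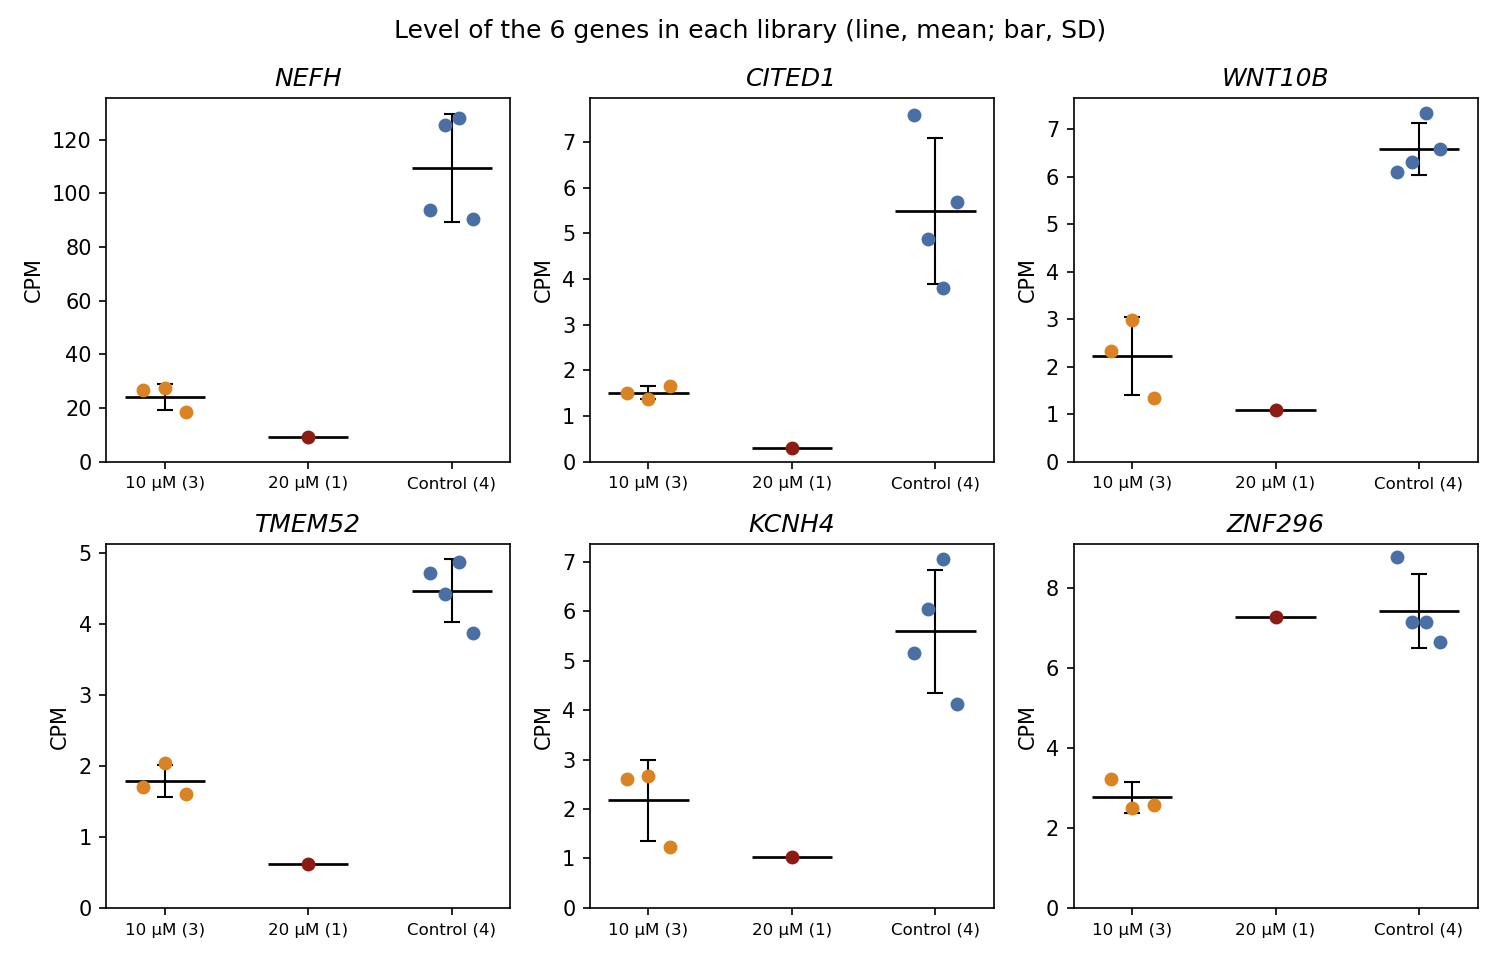
Level in CPM on the vertical axis for each of the 6 genes in the 10 µM, 20 µM and control libraries, with points for libraries, a line for the group mean and a bar for the SD. The treated points of NEFH, CITED1, WNT10B, TMEM52 and KCNH4 are all below the control points, while the 20 µM point of ZNF296, at 7.25 CPM, is among the controls.

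Every treated library was below every control in 5 of the 6 genes, a separation shown by 10.5% of all 13101 tested genes, and every 10 µM library was below every control in 6 of 6, as in 12% of tested genes. Since the genes were chosen for their falls, nothing is read from these counts, nor from the share of genes that passed at 10 µM against control, 19.1% of 14857 genes (9.34% higher and 9.79% lower). The 6 are not simply the head of a ranking. Among 10853 non-globin genes whose log2 CPM averaged at least 1, ordered by the fall over all treated libraries, NEFH and CITED1 were at places 1 and 2, WNT10B at 4, TMEM52 at 10 and KCNH4 at 12. The genes between them, among them SIK1B (-1.89, SE 1.36) and HECW2 (-1.71, SE 1.03), included 4 whose treated and control libraries overlapped. In the rest, TERT (-1.81, SE 0.66), OR52D1 (-1.73, SE 0.53) and ACTL8 (-1.70, SE 0.67), every treated library was below every control. Just after KCNH4 came CD3EAP, a subunit of RNA polymerase I, at -1.67 (SE 0.25). ZNF296 was at place 159 in that order and at place 25 in the order of falls at 10 µM alone.

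**Figure D2:**
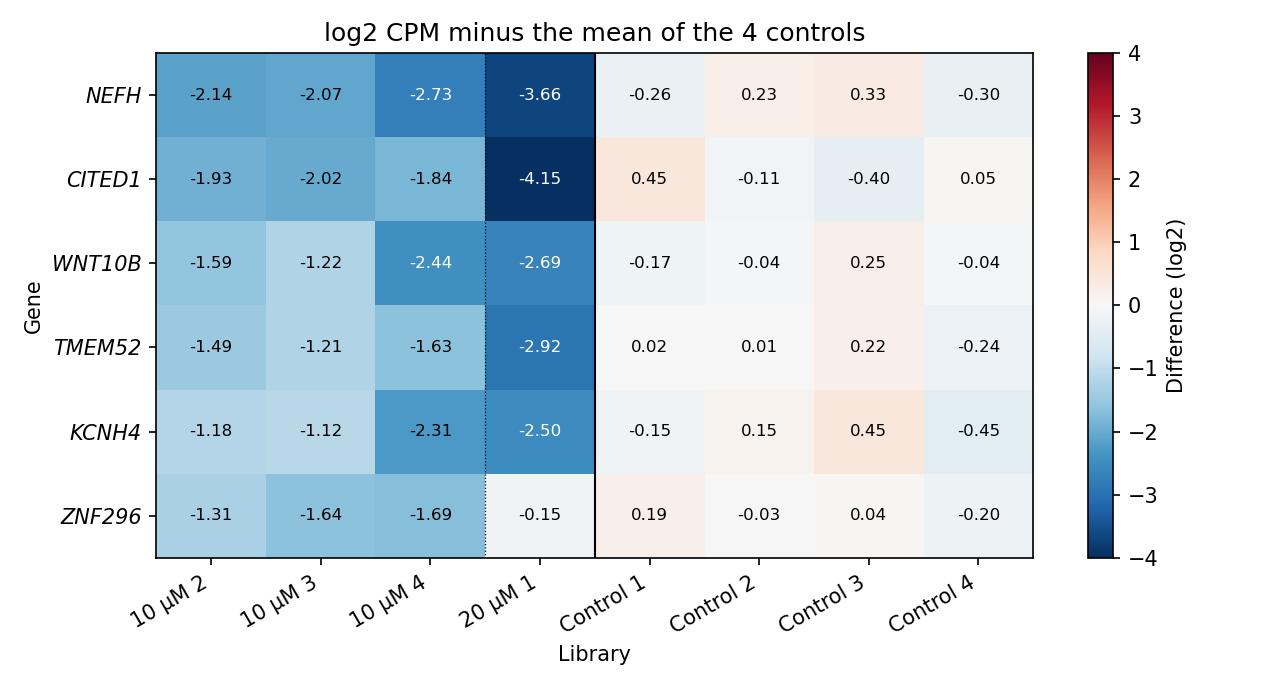
Difference of log2 CPM (prior count 2, TMM-scaled) from the mean of the 4 controls, for the 6 genes in rows and the 8 libraries in columns, with colour and printed value giving the difference. At 20 µM the differences run from -4.15 for CITED1 to -2.502 for KCNH4, with ZNF296 apart at -0.15.

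The 20 µM library was then set against those at 10 µM. Both doses entered the falls that chose the genes, and 20 µM is 1 library, so the differences between doses are a description with no p. CITED1 stood at 0.306 CPM at 20 µM against 1.51 ± 0.145 CPM at 10 µM (SD, n = 3), a log2 difference of -2.30 (SE 0.47, which assumes that the single library varies like the others). TMEM52 stood at -1.53 (SE 0.41) and NEFH at -1.38 (SE 0.35). For WNT10B (-1.04, SE 0.49) and KCNH4 (-1.08, SE 0.56) the SE was large beside the difference, and 10 µM replicate 4 lay close to the 20 µM library. Without that replicate WNT10B stood at -1.33.

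ZNF296 was the only gene of the 6 with a higher level at 20 µM than at 10 µM, 7.25 CPM against 2.76 ± 0.389 CPM (SD, n = 3), a log2 difference of 1.39 (SE 0.28). With the replicate number as a block it stood at 1.15, NEFH at -1.001 and CITED1 at -2.90. The 20 µM library was the lowest of the treated libraries in 5 of the 6 genes, as in 40.4% of tested genes, and nothing is read from this count. Between the doses 26.3% of all 14857 genes tested passed by edgeR, 11.7% higher and 14.6% lower.

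**Figure D3:**
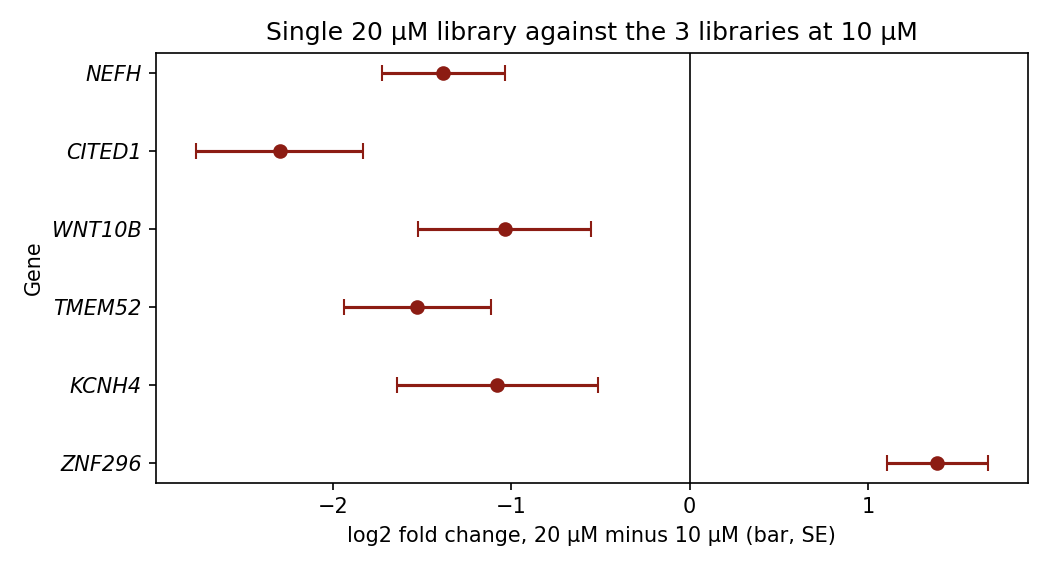
Log2 fold change of the single 20 µM library against the 3 libraries at 10 µM on the horizontal axis for each gene, with bars for the SE. CITED1 is farthest to the left at -2.30, and ZNF296 is alone on the right at 1.39.

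Among the controls, which carry no treatment, the genes could be compared by the submitters' library names, which are letters for controls 1 and 4 and digits for controls 2 and 3. The labels do not call this a batch. NEFH was lower in the letter-named controls, at 93.8 and 90.3 CPM against 125 and 128 CPM in the digit-named ones, a log2 difference of -0.54 (SE 0.10) at an edgeR adjusted p = 0.0309, where 5.24% of 13080 genes passed, 3.9% higher and 1.35% lower. It did not pass without control 1 (adjusted p = 0.0608), control 2 (0.126) or control 3 (0.180). The other 5 genes did not pass, with CITED1 at 0.53 (SE 0.23, adjusted p = 0.212) and KCNH4 at -0.58 (SE 0.22, adjusted p = 0.160). Within each naming pattern the values that chose the genes are given as a description. Treated against control, the log2 fold change of NEFH was -2.89 in letter-named and -2.39 in digit-named libraries, that of CITED1 -2.92 and -1.75, that of WNT10B -2.52 and -1.52, that of TMEM52 -2.10 and -1.47, and that of KCNH4 -2.17 and -1.47. ZNF296 stood at -0.77 and -1.48, and its letter-named treated libraries, at 7.25 and 2.57 CPM, overlapped the letter-named controls, at 8.76 and 6.63 CPM. The letter-named treated libraries hold the 20 µM library, so name and dose cannot be told apart here.

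Relatives and partners of the genes were looked at in 11 lists. Of 93 members tested 12 passed in the comparison of treated with control libraries, 7 higher and 5 lower (12.9%), next to 14.2% of all 13101 genes, 7.47% higher and 6.69% lower. By DESeq2 22 of the 93 passed, next to 3395 of all 13101 genes. By edgeR 4459 of all genes had an unadjusted p under 0.05. The median log2 fold change was 0.00 over the 93 genes and 0.08 over all genes. Single libraries decide the edgeR count of 12: it was 1, FZD4, without any of the 4 controls or without 10 µM replicate 4, 2 without 10 µM replicate 3, and 17 without the 20 µM library.

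Around NEFH, 8 of 12 intermediate filament genes could be tested, with 1 higher, 1 lower and a median of 0.57. NES, the progenitor filament nestin, rose to 22.8 ± 4.34 CPM at 10 µM (SD, n = 3) and 48.3 CPM at 20 µM, against 8.67 ± 4.44 CPM in controls (n = 4), a log2 difference of 1.65 (SE 0.42) at an edgeR adjusted p = 0.0369. LMNB2, a nuclear lamin, fell by 0.79 on the log2 scale (edgeR adjusted p = 0.0275). Of the subunits that NEFH can assemble with in axons, NEFL, NEFM and INA were nearly absent, and PRPH, peripherin, was not at 20 µM. PRPH stood at 0.359 ± 0.462 CPM at 10 µM (SD, n = 3) and 9.10 CPM at 20 µM, against 0.101 ± 0.150 CPM in controls (n = 4), a log2 fold change of 4.49 (SE 1.93) that did not pass (adjusted p = 0.136, unadjusted p = 0.0444). Other scarce transcripts also stood higher at 20 µM, GFAP at 2.04 CPM and COL1A1 at 9.33 CPM. At 10 µM these averaged 0.0328 and 0.287 CPM, and in controls 0.0328 and 0.712 CPM. Of 8 markers of other cells tested, COL1A1 among them, 0 passed by edgeR. LYZ (18.8 CPM) and EPCAM (17.6 CPM) were lower at 20 µM than in the control mean (70.3 and 39.5 CPM). DKK1 and SFRP1 were above 0 only in control 1 and the 20 µM library. The source of these transcripts was not tested. The light subunit NEFL averaged 0.0245 CPM in controls and was at 0 in all treated libraries, INA was at 0 in all 8, and the medium subunit NEFM stood at 0.0184 CPM at 10 µM and 0.0322 CPM at 20 µM and was at 0 in all controls. Of 7 neurofilament kinase genes tested, CDK5R1, the activator of CDK5, fell by 0.81 (SE 0.22, edgeR adjusted p = 0.0428), and CDK5 itself did not pass (-0.35, adjusted p = 0.285). CDK5R1 passed under 5 of 14 alternatives and did not under 9. Among these were upper-quartile scaling (edgeR adjusted p = 0.0557) and no filter on low counts (edgeR adjusted p = 0.0603).

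Other neuronal RNA was scarce in these cells. Of 12 neuronal markers 8 were under 1 CPM in every library and 5 were at 0 in all treated libraries, among them SNAP25, STMN2 and DCX. The summed level of the list was 16.79 to 38.02 CPM in treated and 9.10 to 13.5 CPM in control libraries, and most of it was TUBB3, a neuronal beta-tubulin, which rose by a log2 difference of 1.18 (SE 0.29) at an edgeR adjusted p = 0.0341. By edgeR 1 of the 4 markers tested passed, and by DESeq2 2, the other being SYT1, a synaptic vesicle protein (1.33, SE 0.47, edgeR adjusted p = 0.0844). Both values are opposite in sign to NEFH, and their part in the result was not tested.

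Of the 8 CITED relatives and partners tested 0 passed by edgeR and 0 by DESeq2. SMAD4, a signal transducer that CITED1 can assist, came closest at 0.38 (adjusted p = 0.0825, unadjusted p = 0.0185), and was the only one of the 8 with an unadjusted p under 0.05. CITED2, the better expressed relative, stood at 0.51 (adjusted p = 0.167), and the acetyltransferases EP300 (0.23) and CREBBP (0.44) did not pass.

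WNT10B was one of few WNT ligands in these cells. Of the 18 others 13 were under 1 CPM in every library, WNT1, its neighbour on chromosome 12, among them. Per length, WNT5B had 3.75 CPM per kilobase at 10 µM, 1.42 at 20 µM and 5.57 in controls, and WNT10B 0.847, 0.416 and 2.51. By edgeR, WNT9A was the only one of the 7 ligands tested that passed, and it rose, to 0.944 ± 0.403 CPM at 10 µM (SD, n = 3) and 2.26 CPM at 20 µM, against 0.117 ± 0.0839 CPM in controls (n = 4), which is 3.32 on the log2 scale (SE 0.91) with an edgeR adjusted p = 0.0432, and 0.0513 with the replicate block. DESeq2 called 4 of the 7, where it called 3395 of all 13101 genes. Beside WNT9A these were WNT2B and WNT7A, at 2.11 and 1.89 by edgeR, and WNT5B at -0.93. Among the 12 genes for secretion and receptors the frizzled receptors FZD4 and FZD2 rose. FZD4 stood at 75.6 ± 11.9 CPM at 10 µM and 69.3 CPM at 20 µM, against 35.6 ± 3.47 CPM in controls, a log2 difference of 0.94 (SE 0.12) at an edgeR adjusted p = 0.00858, and passed under all 14 alternatives. FZD2 rose by 0.84 (adjusted p = 0.0453, and 0.0612 with the block).

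Inside the receiving cell, 1 of 15 transduction genes passed, DVL2, which relays the frizzled signal, at 0.49 (edgeR adjusted p = 0.0334), while CTNNB1, the gene of beta-catenin, stood at 0.08 (adjusted p = 0.616). Of the targets and inhibitors 6 of 19 could be tested. KREMEN1, a receptor for the DKK inhibitors, rose by 0.96 (adjusted p = 0.0427), and ZNRF3, a ligase that removes frizzled receptors, fell by 0.74 (adjusted p = 0.0318). AXIN2, the usual readout of beta-catenin activity, was at 0.0468 CPM at 10 µM, 0.0966 CPM at 20 µM and 0.0838 CPM in controls, too low to be tested.

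Of the potassium channels related to KCNH4, 8 of 12 were under 1 CPM in every library, and 0 of the 4 tested passed by edgeR, with 1 at an unadjusted p under 0.05 and 1 called by DESeq2. That was KCNH2, the hERG channel, far above KCNH4 per length, at 81.9 CPM per kilobase at 10 µM, 16.1 at 20 µM and 135 in controls, where KCNH4 had 0.554, 0.265 and 1.43. KCNH2 stood at 481 ± 118 CPM at 10 µM (SD, n = 3) and 94.5 CPM at 20 µM, against 795 ± 47.4 CPM in controls (n = 4). Its highest treated library, at 605 CPM, was below its lowest control, at 724.5 CPM. The log2 fold change of -1.17 (SE 0.45) did not pass (adjusted p = 0.105), but did by DESeq2 (-1.18, adjusted p = 0.0287) and without the 20 µM library (-0.85, edgeR adjusted p = 0.0111). TMEM52B, the relative of TMEM52, was at 0 in all 8 libraries.

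The list for ZNF296 held 22 genes, those of H3K9 methylation and of the NuRD complex with KLF4, a reprogramming factor. By edgeR 2 of them fell and 0 rose, with a median of -0.32 and 8 at an unadjusted p under 0.05. DESeq2 called 6, the methyltransferase genes EHMT1, EHMT2 and SUV39H1, TRIM28, and the NuRD subunits GATAD2A and MTA2. Of all 13101 genes tested, 6.69% fell by edgeR, 4459 had an unadjusted p under 0.05 and DESeq2 called 3395, 1738 higher and 1657 lower. Taken without direction, the counts in the list are near these shares. The direction was more to one side. All 6 genes called by DESeq2 had negative log2 fold changes by edgeR, and only GATAD2B (0.59) and KLF4 lay above 0. The median over all genes was 0.08. The list was chosen with earlier results of these data known, and this lean was not tested. KLF4 stood at 3.24 ± 3.32 CPM at 10 µM (SD, n = 3) and 58.5 CPM at 20 µM, against 2.14 ± 1.85 CPM in controls (n = 4), a log2 fold change of 2.92 that did not pass (adjusted p = 0.149). TRIM28, the co-repressor that recruits H3K9 methylation, fell by 0.67 (SE 0.13, edgeR adjusted p = 0.0183), to 597 ± 59.8 CPM at 10 µM and 483 CPM at 20 µM, against 836 ± 74.6 CPM in controls. SUV39H1, an H3K9 methyltransferase, fell by 0.50 (adjusted p = 0.0441, and 0.0634 with the block). Unlike ZNF296, both were lower in the 20 µM library than in the mean of the 10 µM libraries.

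**Figure D4:**
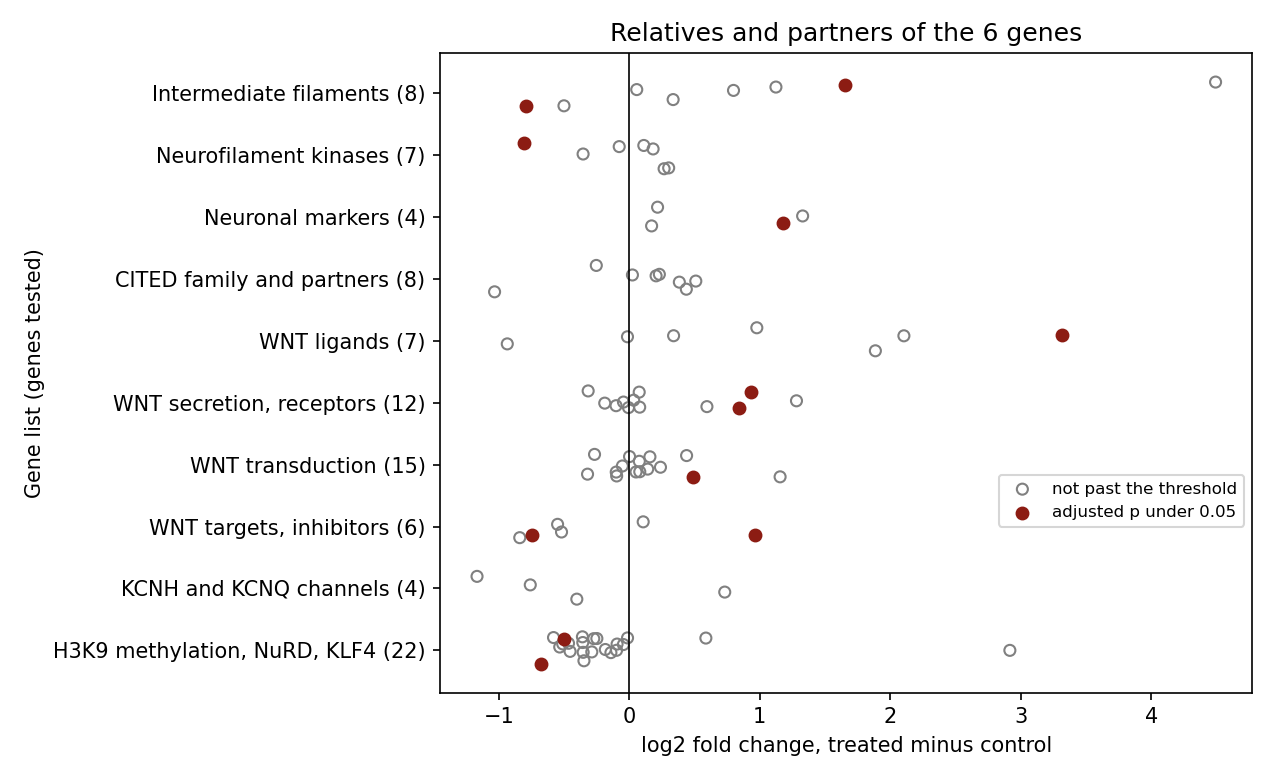
Log2 fold change, treated minus control, on the horizontal axis for each tested relative or partner, by list, with filled points for edgeR adjusted p under 0.05 and open points for the rest. The 12 filled points lie on both sides of 0, with WNT9A the farthest to the right of them at 3.32.

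The falls were set beside those of the chromosomal neighbours, the 2 nearest tested genes on each side. Of these 24 genes 1 rose and 4 fell by edgeR, where 14.2% of all genes tested passed, 7.47% higher and 6.69% lower. RAB5C, a small GTPase of early endosomes 1.85 kb from KCNH4, fell to 69.0 ± 5.25 CPM at 10 µM (SD, n = 3) and 72.4 CPM at 20 µM, against 156 ± 47.8 CPM in controls (n = 4), a log2 difference of -1.28 (SE 0.23) at an edgeR adjusted p = 0.0167. On both sides of NEFH, AP1B1 (-0.51, adjusted p = 0.0488, and 0.0558 with the block) and THOC5 (-0.57, adjusted p = 0.0315) fell less than NEFH did. RFPL1 (0.23, edgeR adjusted p = 0.812) and NIPSNAP1 (0.65, edgeR adjusted p = 0.186), the other neighbours of NEFH, stood above 0 without passing. Of the 4 neighbours each of CITED1, WNT10B and TMEM52, 0 passed by edgeR and 0 by DESeq2, with 1, 0 and 1 at an unadjusted p under 0.05. These calls rest on few libraries. THOC5, AP1B1 and GEMIN7 did not pass without any of the 4 controls or without 10 µM replicate 3 or 4, at adjusted p of up to 0.131, and RAB5C did not without control 3 or 4 or 10 µM replicate 4, at up to 0.0679.

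The neighbourhood of ZNF296 held changes in both directions. RELB, an NF-kB subunit, rose to 7.03 ± 2.99 CPM at 10 µM (SD, n = 3) and 129 CPM at 20 µM, against 1.07 ± 0.691 CPM in controls (n = 4), a log2 difference of 5.04 (SE 1.27) at an edgeR adjusted p = 0.0358, and of 2.58 without the 20 µM library. It did not pass without any of the 4 controls or without 10 µM replicate 4 (adjusted p of up to 0.108), and DESeq2 gave it no adjusted p. CLASRP lies between RELB and ZNF296, on the strand opposite to ZNF296 and ending 0.543 kb from it, and did not pass, at 73.8 ± 10.4 CPM at 10 µM and 104 CPM at 20 µM, against 85.4 ± 17.0 CPM in controls. GEMIN7, 2.61 kb away on the other side, fell by 0.57 (adjusted p = 0.0406). Whether counting used strand is not given in the sources used here.

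**Figure D5:**
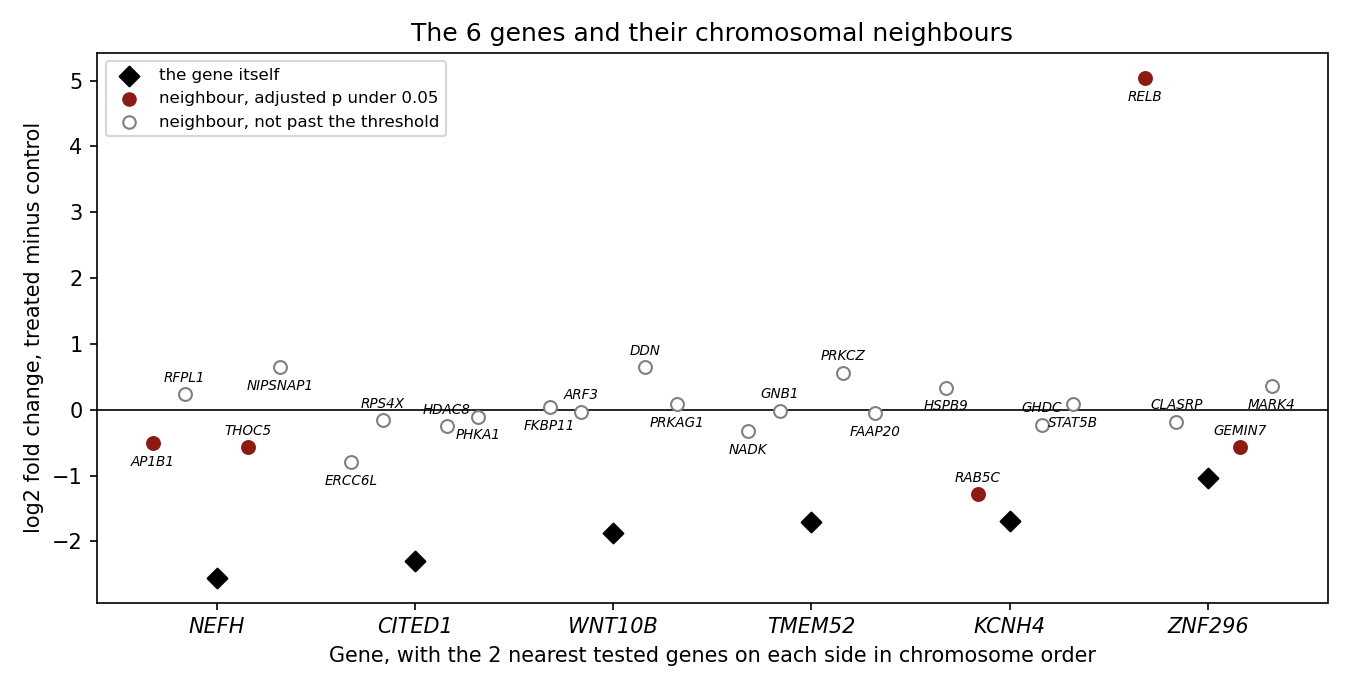
Log2 fold change, treated minus control, on the vertical axis for the 6 genes (diamonds) and the 2 nearest tested genes on each side (circles, filled for edgeR adjusted p under 0.05). RAB5C beside KCNH4 is the lowest circle at -1.28, and RELB near ZNF296 is the highest at 5.04.

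Among tested genes other than the 6, those most like each of them were found by the root mean square difference of log2 CPM profiles over the 8 libraries, each centred on its control mean. This is a description and follows the falls that chose the genes. For WNT10B and KCNH4 they overlapped. PGAM4, a copy of a phosphoglycerate mutase whose reads may be shared with PGAM1, and AMER1, an inhibitor of WNT signalling, were among the closest 3 of both, at 0.36 and 0.38 from WNT10B and 0.25 and 0.26 from KCNH4. Outside the 6, CD3EAP was the closest to WNT10B (0.30) and to TMEM52 (0.25), and GAL, the neuropeptide galanin, to KCNH4 (0.24), with 48.9 ± 14.6 CPM at 10 µM (SD, n = 3) and 29.6 CPM at 20 µM, against 111 ± 20.8 CPM in controls (n = 4). TMEM52 was also followed by ADD2, a membrane skeleton protein of red cells (0.29), and by SLC19A1, the folate carrier (0.30).

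NEFH and CITED1 had more distant matches. Outside the 6 their nearest genes stood at 0.58 for NEFH (OR52D1, an olfactory receptor gene) and 0.47 for CITED1 (EBLN1, at 0.266 CPM in controls), while NEFH was 0.53 from WNT10B and 0.54 from CITED1. ZNF296 had companions in its own course. C22orf34 (0.27), FJX1 (0.28) and SIK1, a salt-inducible kinase (0.34), were likewise lower at 10 µM than at 20 µM. FJX1 stood at 5.53 ± 0.636 CPM at 10 µM (SD, n = 3) and 16.6 CPM at 20 µM, against 12.3 ± 1.3001 CPM in controls (n = 4). The others stayed below the control mean at 20 µM, SIK1 with 3.77 CPM against 5.00 ± 0.216 CPM and C22orf34 with 0.966 CPM against 1.15 ± 0.0748 CPM in controls. Among the 6 genes, ZNF296 was 0.91 to 1.45 from each of the others, while the others were 0.25 to 0.85 from one another.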

How the data were processed

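RNA was sequenced in 8 libraries of K562 cells. The authors deposited 1 table with a count for each gene in each library, all whole numbers. The submitters' processing notes name the hg38 build and the tools HISAT2, StringTie, bcl2fastq 2.0, limma and DESeq2, without a role for any of them here. Ribosomal RNA was depleted and cDNA made from random primers, per the labels' protocols. The table had 19447 genes, and 9 lines without a name were left out. Values of 4 were more common than values of 1 (2958 and 401 entries), so the deposited counts are perhaps not single reads. The exact binomial intervals treat each count as a single read, so they cover counting error only and may misstate it.

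CPM were computed as a gene's share of its library's summed counts, times 1000000. Tests used edgeR 4.0.16 in R 4.3.3 (filterByExpr, TMM, glmQLFit and glmQLFTest, two-sided, Benjamini-Hochberg adjustment over all genes tested, threshold 0.05), with DESeq2 1.42.0 as an alternative. A fit with 3 levels (control, 10 µM, 20 µM) gave the dose contrast, planned as a test of the 6 genes and given as a description, since both doses entered their choice. Scripts were tested on simulated data. Exonic lengths are unions of all exons in GENCODE 29.

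The genes and lists were chosen with earlier results of these data known. Named beside the 6 genes were up to 4 genes of each list with the smallest p that passed (or the leading one), the 2 nearest tested genes on each side, the 3 most similar profiles and genes next to the 6 in the order of falls. PRPH, KLF4, GATA1, KLF1, TAL1, TFRC, SYT1, CITED2, EP300, CREBBP, CDK5, CTNNB1, AXIN2, WNT1, WNT5B, NEFL, NEFM, INA and the neuronal markers at 0 fall outside that rule and were chosen after their values were seen. So do GFAP, COL1A1, LYZ, EPCAM, DKK1, SFRP1 and the other genes named as called by DESeq2 alone. Deviations from the group means correlated between same-numbered treated and control libraries at 0.45, 0.25, 0.39 and 0.26 for numbers 1 to 4. Unlike-numbered libraries of the same naming pattern correlated at 0.0504 to 0.31, with 10 µM replicate 2 at 0.242 with control 3. Pairs across the naming patterns ran from -0.483 to -0.135. The correlations thus follow the naming pattern as well as the number, and pairing by number is an assumption. A block on the number was an alternative to the fit without it.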

Additional observations from a re-analysis of the deposited data

How the results depend on the processing

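The fall of each of the 6 genes kept its sign under all 16 alternatives, with log2 fold changes of -2.89 to -2.31 for NEFH, -2.92 to -1.75 for CITED1, -2.52 to -1.52 for WNT10B, -2.10 to -1.46 for TMEM52, -2.17 to -1.47 for KCNH4 and -1.55 to -0.77 for ZNF296. For genes whose treated libraries all lie below every control, leaving out a library could hardly turn the sign.

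Of all genes, 1855 passed in treated against control, 3395 by DESeq2, 2815 with the replicate block, and 64 to 3021 when a library was left out. The related genes that passed numbered 12, 22 by DESeq2, 7 with no filter on low counts, and 1 to 17 when a library was left out. In 20 µM against 10 µM, 3903 genes passed, and 2841 to 4645 over the alternatives. Past the same threshold there were 4 of the 6 genes, 2 with the replicate block and 3 to 5 when a library was left out, counts that support nothing since both doses entered the choice of the genes. No value could be had without the single 20 µM library. The block changed no other call of the 6 genes. Between letter-named and digit-named controls 686 genes passed, 1486 with no filter on low counts, 2053 by DESeq2, and 204 to 1328 when a control was left out. Of the 6 genes 1 passed there, and 0 to 1 when a control was left out. ZNF296, near 0 in that comparison (0.02), stood at -0.175 without control 1, -0.0115 without control 2 and 0.196 without control 4. A block on the number could not be fitted between the controls, where each number occurs once. The cause of these shifts was not tested. Under upper-quartile scaling the calls of treated against control were 1147 higher and 728 lower, where TMM gave 979 and 876.

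Few counts limit CITED1, TMEM52, WNT10B and KCNH4 in all treated libraries, with 38 to 136 counts at 20 µM and 90 to 213 at 10 µM.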
